A study of Mus musculus with 6 samples.

Results

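Il6, Tnf, Il10, Il12b, Il23a, Il27, Csf1, Csf2, Csf3 and Lif, a set of cytokine and colony-stimulating factor genes that LPS is known to induce in macrophages, were read in LPS-stimulated RAW 264.7 cells with and without 15-HETE. They were taken as a list of gene symbols. A probe annotated to 1 of these symbols alone was found for 8 of the 10 genes, and each of the 8 had 1 probe on an array of 33012 probes. The levels of Il12b and Csf1 were not analysed here. RAW 264.7 is a mouse macrophage-like line, and 15(S)-HETE is a hydroxy fatty acid made from arachidonic acid, also carried by malaria pigment. Both groups received 1 μg/mL LPS for 24 h, and the treated group received 40 μM 15-HETE just before it. There were 3 biological replicates in each group, each pooled from 6 wells, and no cells without LPS were among the samples, so a value shows the level under LPS and not its induction. The arrays gave linear intensities in arbitrary units that the authors had quantile normalized, with a median of 837 in each sample. An intensity cannot separate fewer producing cells from less RNA per cell.

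LPS is sensed by TLR4 with CD14 and MD-2, and the signal runs through MyD88 and TRIF to NF-κB, MAP kinases and interferon regulatory factors. TNF and IL-6 spread inflammation, IL-10 restrains the macrophage that makes it, and the IL-12 family directs T cell responses through shared subunits. The colony-stimulating factors drive the growth and maturation of granulocytes and macrophages. Many of these mRNAs carry AU-rich elements and are short-lived, so that decay factors as well as transcription set their levels.

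Levels of Il6, Tnf, Il10 and Csf3 were lower in every 15-HETE-treated sample than in every LPS sample, and Il27 was higher in every treated sample. Csf2, Lif and Il23a overlapped between the groups. With limma and Benjamini-Hochberg adjustment over all probes, 0 of the 8 genes passed an adjusted p of 0.05, on an array where 0.951% of probes did, while at an unadjusted p under 0.05 limma had 4 lower and 1 higher, against 11% and 8.62% of all probes. When the prior variance of limma was allowed to follow intensity (the intensity trend), the same 4 lower genes passed, against 4.96% of all probes, and 0 of the 8 were called higher, against 3.87%. Both shares are larger among bright probes, and 7 of the 8 genes lay above the median intensity. Of the 16506 probes above it, 2619 were lower at an unadjusted p under 0.05 in limma, and the trend called 1527 lower and 1212 higher. The groups did not overlap in the lower direction for 4 of 8 genes, compared with 16.3% of all probes and 25.3% of those above the median intensity, and in the higher direction for 1 of 8, compared with 13.7%. Of the 16506 probes above the median intensity, 3347 were higher without overlap. The median log2 fold change of the 8 genes was -0.78, and that of all probes was 0.01. Every log2 fold change is the treated mean less the LPS mean, so that negative values mean lower with 15-HETE.

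**Figure D1:**
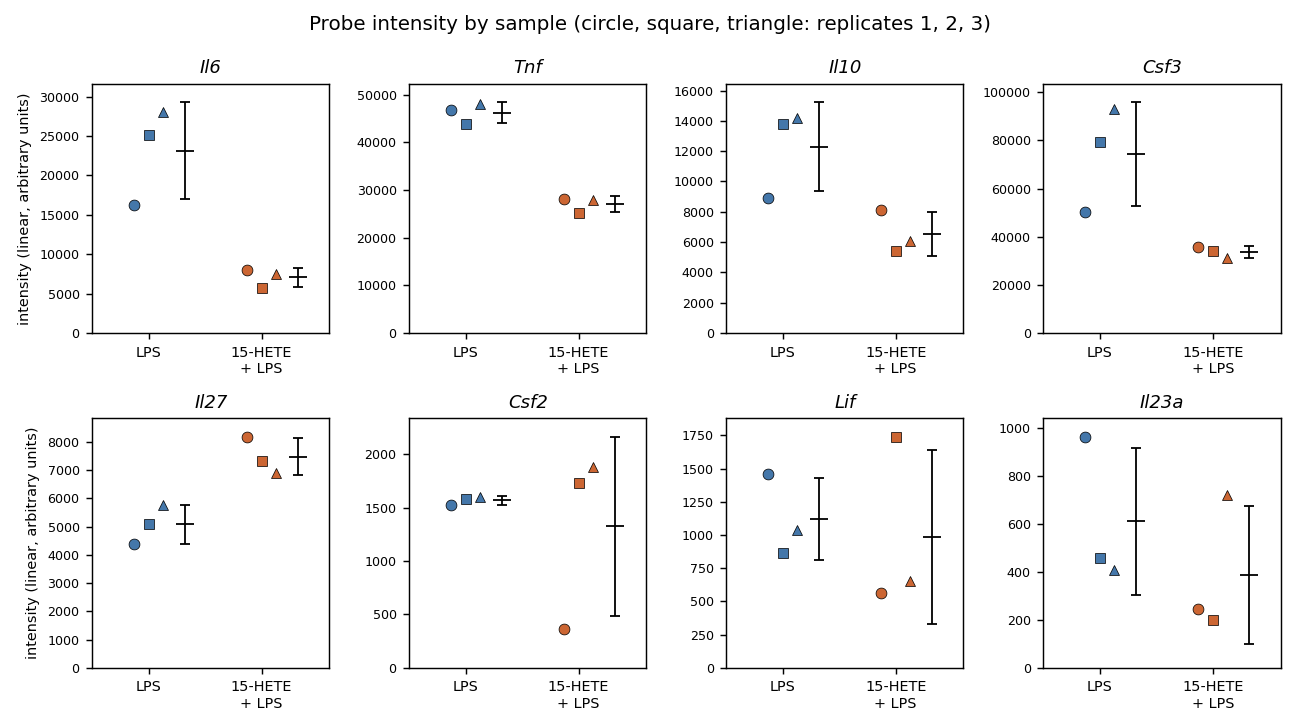
Intensity of each measured cytokine and colony-stimulating factor gene in the 6 samples (y axes linear from 0, 1 scale per gene; black bars, mean ± SD, n = 3). Treated samples lie below all LPS samples for Il6, Tnf, Il10 and Csf3 and above them for Il27, whereas 1 treated sample stands apart from the other two for Csf2, Lif and Il23a.

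Il6 encodes a pleiotropic cytokine of the acute phase response and had the largest difference of the 8 genes. Its intensity was 16219, 25133 and 28060 in the LPS replicates and 7956, 5734 and 7511 in the 15-HETE + LPS replicates. The highest treated sample was thus well below the lowest LPS sample, which was replicate 1. The log2 fold change was -1.69 (standard error 0.28, 95% interval -2.36 to -1.02), with an adjusted p = 0.0570 from limma and 0.00239 with the intensity trend. On the linear scale LPS cells had 3.22 times the level of treated cells (95% interval 2.02 to 5.13). All 3 treated samples were past 1.8-fold below the LPS mean, the fold rule of the methods.

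Tnf encodes tumour necrosis factor, which is shed from the cell surface and acts early in the response to LPS. The LPS replicates had 46863, 43791 and 48053, and the 15-HETE + LPS replicates had 28145, 25203 and 27943. Samples of a group lay close together, with a coefficient of variation of 4.76% in LPS and 6.07% in treated cells. The difference was smaller than that of Il6, at -0.77 on the log2 scale (standard error 0.17, 95% interval -1.18 to -0.36), with an adjusted p = 0.0870 from limma and 0.00413 with the intensity trend. LPS cells had 1.71 times the level of treated cells, and 1 of 3 treated samples was past the 1.8-fold rule.

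The 250 bases before the transcription starts of Il6, Tnf and Csf2 are shown as a description of sequence. These genes were picked after their values were seen. Il6 and Tnf lay lower, and Csf2 overlapped with treated values of 361, 1731 and 1884. Il10 and Csf3, which also lay lower, had no entry, so lower and overlapping genes cannot be compared by their letters. Whether the letters bear on the levels was not tested. The sequences are from RefSeq on GRCm38.p6, where 6 of the 10 genes had an entry. Capitals mark letters found in many binding sites, searched on both strands: GGANNTTCC for NF-κB, TGANTCA for AP-1 and TTGCNNAA for C/EBP. The matches did not overlap each other. They stand on chr5:30012864-30013113 (plus strand) for Il6, on chr17:35202008-35202257 (minus strand) for Tnf and on chr11:54249900-54250149 (minus strand) for Csf2.
Il6: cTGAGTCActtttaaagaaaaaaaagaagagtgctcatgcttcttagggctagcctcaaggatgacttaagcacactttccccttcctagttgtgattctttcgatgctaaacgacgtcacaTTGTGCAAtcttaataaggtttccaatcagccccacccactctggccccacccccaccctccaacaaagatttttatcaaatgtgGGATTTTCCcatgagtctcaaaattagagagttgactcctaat
Tnf: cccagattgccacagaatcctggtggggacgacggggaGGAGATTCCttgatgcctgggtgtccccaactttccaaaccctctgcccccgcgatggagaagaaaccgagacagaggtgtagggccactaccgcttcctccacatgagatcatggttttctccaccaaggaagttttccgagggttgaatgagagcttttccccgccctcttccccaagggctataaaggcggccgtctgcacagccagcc
Csf2: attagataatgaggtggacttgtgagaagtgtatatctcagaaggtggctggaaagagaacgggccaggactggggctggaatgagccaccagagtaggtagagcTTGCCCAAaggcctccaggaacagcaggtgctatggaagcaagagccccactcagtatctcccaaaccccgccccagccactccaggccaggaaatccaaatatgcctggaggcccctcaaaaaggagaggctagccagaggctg

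The Il6 window held 1 match to each set of letters, with the NF-κB letters beginning 43 bases before the start and the C/EBP letters, read on the opposite strand, 128 bases before it. In the Tnf window the NF-κB letters began 212 bases before the start, and those of AP-1 and C/EBP were not in it. The Csf2 window held C/EBP letters alone, and that of Lif AP-1 letters alone. Among 32851 windows of this length, 3.59% held the NF-κB letters, 6.75% those of AP-1 and 9.56% those of C/EBP. A match of letters is a description of the sequence and not a bound site, and no match says only that these letters are not in the window.

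Csf3 and Csf2 encode the granulocyte factor G-CSF and the granulocyte-macrophage factor GM-CSF. Csf3 had 50474, 79438 and 92871 in the LPS replicates and 35743, 34160 and 31056 in the 15-HETE + LPS replicates. Here the LPS samples spread widely and the treated samples lay close together, with coefficients of variation of 29.2% and 7.08%. The log2 fold change of Csf3 was -1.10 (standard error 0.27, 95% interval -1.75 to -0.45), with an adjusted p = 0.107 from limma and 0.0112 with the intensity trend. All 3 treated samples were past the 1.8-fold rule, and LPS cells had 2.14 times the level of treated cells.

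Csf2 showed no common direction. LPS replicates were nearly equal at 1525, 1579 and 1603, while the treated replicates had 361, 1731 and 1884, so that 1 treated sample lay far below the LPS samples and the others above them. The log2 fold change was -0.57, its 95% interval ran from -2.13 to 0.99, and the adjusted p was 0.663 from limma. Without 15-HETE + LPS replicate 1 it was 0.20.

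Il10 encodes the anti-inflammatory cytokine that limits macrophage activation. Its values were 8889, 13814 and 14162 in LPS cells and 8138, 5391 and 6064 in treated cells. The groups were separate, but LPS replicate 1 and treated replicate 1 lay near each other. Its log2 fold change was -0.90 (standard error 0.28, 95% interval -1.57 to -0.23), with an adjusted p = 0.154 from limma and 0.0344 with the intensity trend. Thus the anti-inflammatory Il10 lay lower along with the pro-inflammatory Il6 and Tnf.

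Members of the IL-12 family are pairs of subunits, and their genes went in different directions. Il27, which encodes the p28 subunit of IL-27, had 4386, 5108 and 5764 in LPS cells and 8180, 7335 and 6898 in treated cells. Every treated sample was above every LPS sample, and the log2 fold change was 0.56 (standard error 0.19, 95% interval 0.09 to 1.03) with an adjusted p = 0.189 from limma and 0.0661 with the intensity trend. Ebi3, the partner subunit of IL-27, was likewise higher in every treated sample, from 56633 ± 11019 to 83058 ± 8617 (SD, n = 3), with a log2 fold change of 0.57 and an adjusted p = 0.236 from limma. So both subunits of IL-27 were higher in the treated samples, and neither passed the test.

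Il12a, which encodes the p35 subunit of IL-12, had 582471, 324682 and 382908 in LPS cells and 78165, 127232 and 131527 in treated cells. All treated samples were thus far below all LPS samples. Its log2 fold change was -1.93 (standard error 0.32), with an adjusted p = 0.0575 from limma and 0.00267 with the intensity trend. Il23a, which encodes the p19 subunit of IL-23, had 965, 461 and 408 in LPS cells and 245, 200 and 721 in treated cells, and the groups overlapped. It was the 1 gene of the 8 whose mean lay below the array's median, and its 95% interval ran from -2.19 to 0.61 around a log2 fold change of -0.79.

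**Figure D2:**
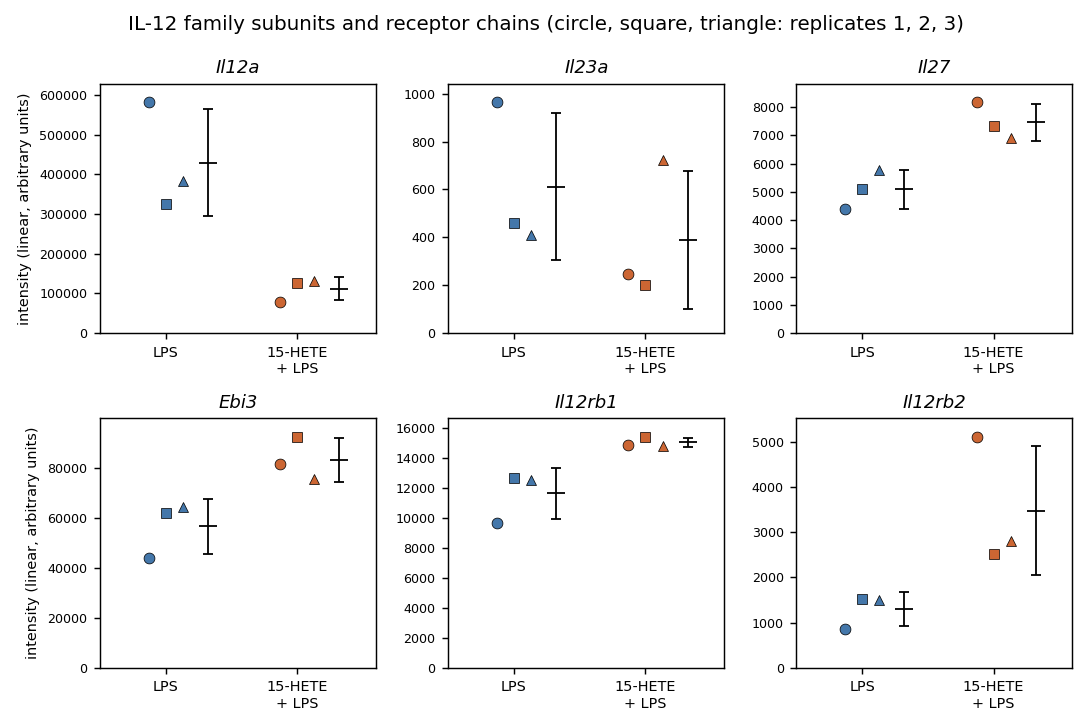
Intensity of IL-12 family subunit genes and IL-12 receptor chains in the 6 samples (y axes linear from 0, 1 scale per gene; black bars, mean ± SD, n = 3). Il12a lies lower in all 3 treated samples, Il27, Ebi3, Il12rb1 and Il12rb2 lie higher in all 3, and Il23a overlaps.

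Lif encodes leukaemia inhibitory factor, a cytokine of the IL-6 family. It had 1462, 865 and 1034 in LPS cells and 563, 1739 and 656 in treated cells. The highest and the lowest of the 6 values both came from treated samples. Lif had a log2 fold change of -0.34 with a 95% interval of -1.49 to 0.81, so the data left its direction unsettled. In treated cells the coefficient of variation was 66.3% for Lif, 63.3% for Csf2 and 74.3% for Il23a, and at most 21.9% for the other 5 genes.

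**Figure D3:**
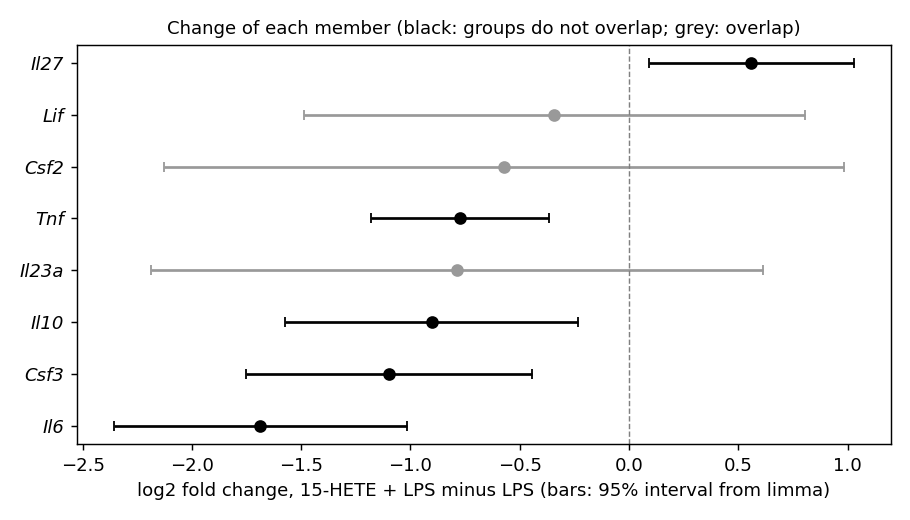
Log2 fold change (15-HETE + LPS minus LPS) of each gene, with its 95% interval from limma. Intervals of Il6, Tnf, Il10 and Csf3 lie below 0 and that of Il27 above 0, while those of Csf2, Lif and Il23a are wide and cross 0.

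An exact permutation test over the samples gave a two-sided p = 0.1 for each of the 5 genes whose groups did not overlap, the smallest that 3 samples against 3 allow. At the thresholds of the methods (an adjusted p of at most 0.025), the methods' t-test adjusted over probes past the 1.8-fold rule called 0 of the 8 genes, against 0.267% of all probes. Its adjusted p was 0.0629 for Il6, 0.117 for Il10 and 0.134 for Csf3. This was a re-run without the study's S/N and flag filter, and not the study's own result. Past the fold rule in the lower direction, at least 2 of 3 treated samples, were Il6, Csf3, Il10 and Il23a, against 10.3% of all probes.

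With 1 of the 6 samples left out, Il6 ran from -1.92 to -1.53 on the log2 scale, Tnf from -0.81 to -0.72, Csf3 from -1.35 to -0.91, Il10 from -1.12 to -0.78 and Il27 from 0.46 to 0.65. LPS replicate 1 was the lowest LPS sample for 5 of the 8 genes, and without it Il6, Csf3 and Il10 lay furthest from 0. By contrast, Lif ran from -0.85 to -0.03, Il23a from -1.35 to -0.40 and Csf2 from -0.99 to 0.20. Limma called 0 probes of the whole array in each of these fits. With the intensity trend, Il6 and Tnf passed in 6 of 6 such fits, Csf3 in 4, Il10 in 2 and Il27 in 1, the last without LPS replicate 1. Across these 6 fits the trend called 535 to 2595 probes of the array higher and 688 to 2540 lower, and the most in both directions came without LPS replicate 1, where 1279 higher and 1638 lower were called with all samples.

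**Figure D4:**
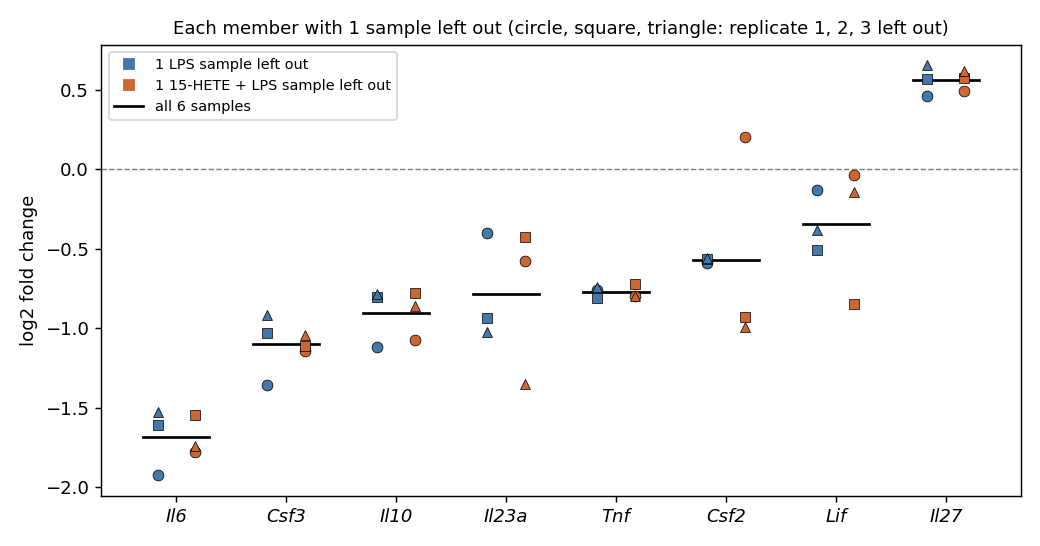
Log2 fold change of each gene with all 6 samples (black line) and with 1 sample left out (points, coloured by the group of that sample). Points of Il6, Tnf, Csf3, Il10 and Il27 stay on 1 side of 0, and Csf2 crosses to 0.20 without 15-HETE + LPS replicate 1.

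Receptors of these cytokines were measured for 12 of 16 chains, and limma called 0 of them. At an unadjusted p under 0.05 there were 3 of the 12, where the share of all probes in either direction was 19.6%. The median log2 fold change was 0.06. Csf3r, the receptor of G-CSF, had 872246 ± 166143 (SD, n = 3) in LPS cells and 449039 ± 33744 in treated cells, a log2 fold change of -0.94 with an adjusted p = 0.0885. Thus Csf3 and its receptor were both lower in every treated sample. Il12rb2, a signalling chain of the IL-12 receptor, had 1.40 (adjusted p = 0.123) and was higher in every treated sample, and Csf2rb, the shared chain of the GM-CSF receptor, had -1.23 (adjusted p = 0.187) and was lower. The means of Csf2rb were 1556 in LPS and 746 in treated cells. Csf2ra, the binding chain of the GM-CSF receptor, had -0.17 and Csf2rb2 had 0.05, both with overlap between groups. Binding chains of the IL-6, TNF and IL-10 receptors had log2 fold changes of -0.05 for Il6ra, 0.07 for Tnfrsf1a and 0.07 for Il10ra, each with overlap between groups. Il10rb, the second chain of the IL-10 receptor, had 0.27 (adjusted p = 0.422) and was higher in every treated sample. Il6st had 0.06 at its brighter probe and 1.13 at its dimmer one (adjusted p = 0.0592).

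Of 33 other cytokines and growth factors 32 were measured, 1 was called higher and 0 lower, beside 0.951% of all probes in either direction. The median log2 fold change of the list was 0.23. Il1a, which encodes the alarmin interleukin-1α, rose from 12696 ± 2498 to 63625 ± 4081 (SD, n = 3), a log2 fold change of 2.34 with an adjusted p = 0.0327 from limma. Il1b had 1.29 (adjusted p = 0.0571) and was higher in every treated sample. Interleukin-1 genes therefore lay higher in the same samples in which Il6, Tnf, Il10, Csf3 and Il12a lay lower. The groups did not overlap for 9 genes of this list in the higher and 4 in the lower direction, beside 13.7% and 16.3% of all probes.

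In the path from the LPS receptor to NF-κB 20 of 29 genes were measured, with a median log2 fold change of -0.19. Limma called 1 higher and 0 lower, beside 0.951% of all probes in either direction. Tab2, an adaptor that brings the kinase TAK1 to ubiquitin chains, rose from 2408 ± 633 to 9521 ± 593 (SD, n = 3), a log2 fold change of 2.01 with an adjusted p = 0.0368 from limma. Irak2, a kinase of the MyD88 complex, had 1.66 (adjusted p = 0.0758), and Nfkb2, which encodes the precursor p100, had -0.99 (adjusted p = 0.123). The groups did not overlap for 6 of the 20 genes in the higher and 6 in the lower direction. For all probes the shares were 13.7% and 16.3%, and for the 16506 above the median intensity the numbers were 3347 and 4175. The lower genes included Nfkbie (-0.68), Rela (-0.47) and Rel (-0.43), and the higher ones Irak3 (0.69) and Tnfaip3 (0.63). The LPS coreceptors Cd14 and Ly96 had 0.21 and 0.54 and did not pass. Tlr4, Myd88, Nfkb1 and Nfkbia were among the genes not analysed here.

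Among factors known to act at cytokine promoters 22 of 24 were measured, 0 were called higher and 2 lower, beside 0.951% of all probes. Both calls were Pou2f2, an octamer-binding factor (log2 fold change -2.14, adjusted p = 0.0289), and Egr1, an immediate early factor (-2.24, adjusted p = 0.0327). Hlx, a homeobox factor, had 1.09 (adjusted p = 0.0612). C/EBPβ, a known activator of Il6, had -0.29 at the brighter probe of Cebpb, lower in every treated sample, and 0.32 at the dimmer one, higher in every treated sample, so the probes disagreed and neither passed. Among AP-1 members, Fos (0.49) and Junb (0.29) were higher in every treated sample, while Jun (0.03) and Fosl1 (-0.09) overlapped. Atf3 (-0.10) and Batf (-0.43) overlapped as well. Irf3 (-0.57) and Irf8 (-0.50), interferon regulatory factors, and Cebpd (-0.52) were lower in every treated sample. Limma called none of the 3, and the intensity trend called Irf3 and Irf8. The other interferon regulatory factors of the list, Irf1 (-0.31) and Irf5 (0.05), overlapped between the groups. In all, 4 of the 22 factors were higher and 7 lower without overlap between groups, beside 13.7% and 16.3% of all probes. Among probes above the median intensity 25.3% were lower without overlap, and 3347 of 16506 were higher.

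For mRNA decay and the release of TNF 14 of 18 genes were measured. Limma called 2 higher and 0 lower, beside 0.951% of all probes in either direction. Zfp36l1, whose protein binds AU-rich mRNAs and speeds their decay, rose by 2.35 on the log2 scale (adjusted p = 0.0395), and Mapk14, the kinase p38α that acts on such decay, rose by 1.12 (adjusted p = 0.0498). Zfp36l2, a relative of Zfp36l1, had 1.16 (adjusted p = 0.0754) and was higher in every treated sample. Khsrp, another factor that promotes decay of AU-rich mRNAs, had -0.75 (adjusted p = 0.0990, and 0.00637 with the intensity trend), and Tial1, which binds such mRNAs, had -0.47 (adjusted p = 0.197, and 0.0298 with the trend), both lower in every treated sample. Zfp36, the family member that destabilizes Tnf mRNA, had -0.45 (adjusted p = 0.255), and all its treated samples were lower. Adam17, the protease that sheds TNF, had -0.21 with overlap between the groups.

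Downstream of the cytokine receptors 21 of 23 genes of JAK-STAT signalling were measured and limma called 0, with a median of -0.23. At an unadjusted p under 0.05 there were 6 of the 21, beside the 19.6% of all probes. Etv3, a repressor that IL-10 induces, had 62870 ± 14439 (SD, n = 3) in LPS cells and 27462 ± 80.9 in treated cells, a log2 fold change of -1.17 with an adjusted p = 0.0675. Stat3, through which IL-6 and IL-10 signal, had 0.88 (adjusted p = 0.116), and Stat5b, used by colony-stimulating factor receptors, had -0.91 (adjusted p = 0.119). Socs3, the feedback inhibitor of IL-6 signalling, had -0.30, and its groups overlapped. Nfil3, which IL-10 also induces, lay lower in every treated sample (-0.87, adjusted p = 0.128).

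**Figure D5:**
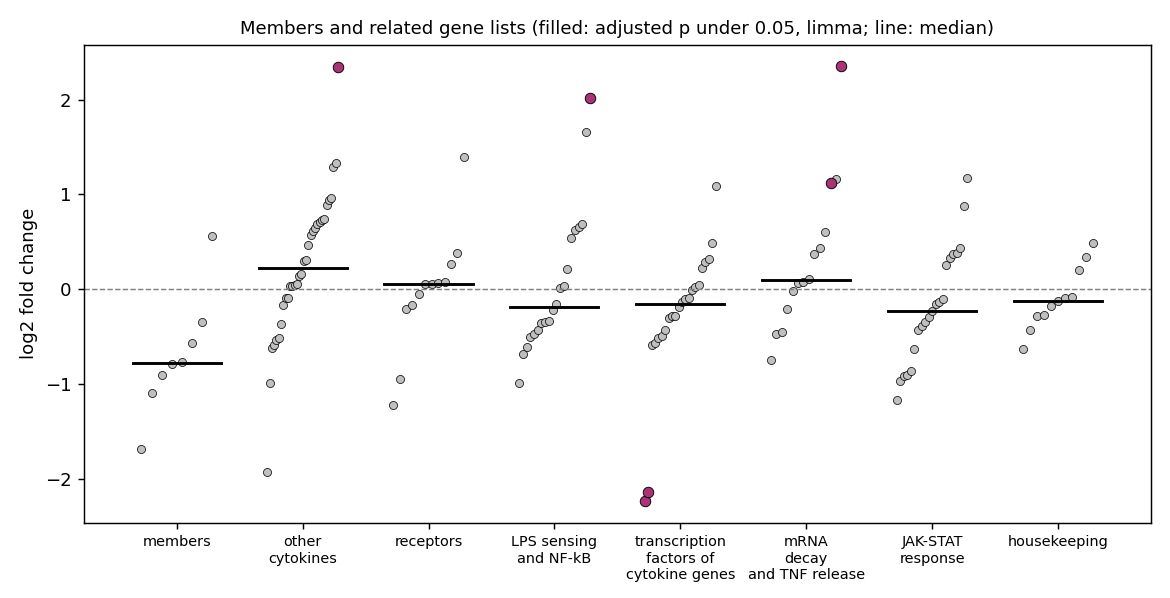
Log2 fold change of every measured gene of the cytokine set and of 7 related lists (black lines, medians; filled points, adjusted p under 0.05 from limma). No gene of the cytokine set is filled and its median is -0.78, while Il1a, Tab2, Zfp36l1 and Mapk14 are filled above 0 and Egr1 and Pou2f2 below 0.

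Across probes, log2 intensities of any 2 LPS samples had a Pearson's r of 0.972 to 0.979, those of 2 treated samples 0.955 to 0.962, and those of 1 sample from each group 0.943 to 0.962. Which arrays were run together is not given in the sources used here, so array sets and treatment cannot be told apart. Of 11 macrophage markers 9 were measured, and the 9 were above the array's median. So were 5 of 6 measured fibroblast markers and 4 of 4 granulocyte markers, so being above the median did not set macrophage markers apart. For the lymphocyte, epithelial and dendritic cell markers it was 1 each. The summed intensity of the macrophage markers ran from 2846720 to 3638463 in LPS and from 4063835 to 4230698 in treated cells. Sums over markers of other cells, none of them listed at 0, ran from 2740 to 3800 and from 2532 to 5789 for lymphocytes (5 of 7 measured), from 23806 to 29821 and from 15236 to 16916 for fibroblasts (6 of 6), from 4943 to 6011 and from 2531 to 4641 for epithelial cells (5 of 5), from 4982 to 6566 and from 2412 to 3963 for granulocytes (4 of 5), and from 5064 to 8053 and from 4413 to 6137 for dendritic cells (4 of 5). The macrophage sum lay higher in treated cells and those of fibroblast, epithelial and granulocyte markers lay lower, as Il6, Tnf, Il10 and Csf3 did, and their part in these results was not tested. Most of the macrophage sum was Lyz2, the difference in the fibroblast sum was mostly Dcn (14584 to 5822), the 1 of 6 whose groups did not overlap, and that in the epithelial sum mostly Krt8 (3474 to 1735), while Cdh1 was higher in every treated sample. None of these markers was called by limma. The intensity trend called 1 macrophage marker higher (Fcgr3, adjusted p = 0.0344) and 1 each of the fibroblast, epithelial and granulocyte markers lower. Control genes such as Actb and Gapdh ran from -0.63 to 0.49 on the log2 scale at their brightest probes. Limma called 0 of 11, against 2 at an unadjusted p under 0.05, and the intensity trend called Tbp higher (adjusted p = 0.0479). Without overlap between groups, 6 of the 11 were lower and 2 higher, beside 16.3% and 13.7% of all probes. A dimmer probe of Ywhaz had 0.91 and that of Rplp0 had 0.63, both above this range.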

How the data were processed

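Total RNA of RAW 264.7 cells was labelled with digoxigenin and hybridized to ABI mouse genome survey arrays. The deposited values are linear intensities that the authors read on a chemiluminescent analyzer and quantile normalized. Background correction is not given in the sources used here, and the S/N and flag values behind the study's own filter were not used here. Intensities were turned to log2 and the groups were compared probe by probe in R 4.3.3 by limma 3.58.1 (lmFit, then eBayes with its default prior, two-sided; statmod 1.5.0 for the robust prior), with Benjamini-Hochberg adjustment over 33012 probes, and an adjusted p under 0.05 made a call. The table gives no depth, and the number of arrays limits the precision. A gene was read at its brightest probe with 1 symbol in the platform annotation, and for the 8 measured cytokine genes RefSeq gave the same symbol by gene id. The members and lists were chosen with earlier results of these data known. Named were all members, and in each list the called genes, or else the 3 with the lowest p; other genes of the lists were named after their values were seen. Alternatives were other priors, the methods' t-test, cyclic loess, an offset of 100, a filter on dim probes, the mean over probes, a block on the replicate number and the removal of single samples.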

Additional observations from a re-analysis of the deposited data

How the results depend on the processing

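Of 15 alternatives 8 called 0 probes on the whole array, so no cytokine gene could pass under them, and the mean over probes cannot move genes with 1 probe each. The methods' t-test past the fold rule gave Tnf, Il27, Csf2 and Lif no adjusted p. These say nothing of stability. The direction of 1 of the 8 genes reversed, that of Csf2, at 0.20 without 15-HETE + LPS replicate 1 (range -0.99 to 0.20 with 1 sample left out). The number of cytokine genes called lower, 0 with limma, was 4 with the intensity trend (Il6, Tnf, Il10 and Csf3), 3 when probes above the median intensity alone were tested (Il6, Tnf and Csf3) and 1 with an offset of 100 (Il6). The number called higher was 0 under each of these. Alternatives chosen after seeing the data gave 2 to 4 lower and 0 to 1 higher with the intensity trend and 1 sample left out (2 without 15-HETE + LPS replicate 2 or 3), 3 lower with the trend and the replicate block and 4 lower with the trend on cyclic loess values.

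With the intensity trend, calls were 5 of 32 other cytokines, 2 of 12 receptors and 6 of 20 genes of LPS sensing and NF-κB. They were 5 of 22 transcription factors, 5 of 14 genes of mRNA decay and TNF release and 4 of 21 JAK-STAT genes. The trend called 3.87% of all probes higher and 4.96% lower. Of the 16506 probes above the median intensity it called 1212 higher and 1527 lower. When these bright probes alone were tested, the list calls were 5, 2, 5, 4, 5 and 4 in this order. The offset gave 3 for other cytokines, 1 for JAK-STAT genes and 3 for transcription factors (Hlx besides Egr1 and Pou2f2), and the robust prior 1 for mRNA decay. The methods' t-test over all probes called 0 on the array, so 0 in each list. Adjusted over probes past the fold rule it called 0 other cytokines, 0 genes of LPS sensing, 1 transcription factor and 1 gene of mRNA decay. The paper lists Il1a, Il1b, Il15 and Egr1 as changed and reports more altered transcripts than this re-run called. The re-run thus did not recover the study's list and does not stand for its outcome. With the replicate block limma called 0 probes of the array, so 0 in each list, and with 1 sample left out it also called 0 in each list (range 0 to 0). On the whole array limma called 168 probes higher and 146 lower, the intensity trend 1279 and 1638, the robust prior 100 and 62, the offset 345 and 358, the filter on dim probes 1207 and 1589 and the methods' t-test past the fold rule 50 and 38. A background correction could not be tried, since no background values were used here, and slide and scan are not given in the sources used here. The cause of these differences was not tested. Deviations of same-numbered samples correlated at -0.024, 0.0035 and 0.0237, so the numbers were not taken to pair samples, and the block says nothing of effect size.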

Other observations

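Of the 16 protein-coding genes that flank the 8 measured cytokine genes on the chromosome in GRCm38.p6, 11 were measured and 0 passed in limma, against 1 at an unadjusted p under 0.05. Treated samples were all lower for 2 of these neighbours and all higher for 2, beside 16.3% and 13.7% of all probes. The lymphotoxin genes Lta and Ltb, on either side of Tnf, had log2 fold changes of -0.51 and 0.14 with overlap between the groups, where Tnf had -0.77 without overlap. Beside Il6, the chaperone gene Dnajb6 had -0.24. The thymidylate synthase gene Tyms, also beside Il6, had intensities of 150 ± 17.6 and 306 ± 23.2 (SD, n = 3), among the dimmest of the array (median 837), with an adjusted p of 0.0637 from limma and 0.0802 with the intensity trend. Il19, next to Il10, had 0.06, and Il3, next to Csf2, had 0.69, both with overlap between the groups. Apobr, next to Il27, was higher in every treated sample with 0.29, as Il27 was with 0.56.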
